A study of Rattus norvegicus with 18 samples.

Results

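Genes of osteoclast fusion and bone resorption were followed in cells sorted from the rat knee synovium, comparing the difference between OA and sham at 4-weeks with that at 12-weeks. The genes were chosen by name from a list of 10 (Tnfrsf11a, Oscar, Calcr, Nfatc1, Ocstamp, Dcstamp, Atp6v0d2, Acp5, Ctsk and Mmp9). Of these, 9 had a row in both time-point tables, among 30643 genes per table, and Dcstamp was not analysed here. The list was drawn up with the OA and sham values of these libraries already known, so differences between OA and sham in the 9 genes are given as a description, with no test. All rats were male, wild type Sprague Dawley animals operated on at 12 weeks of age. In the OA groups the medial meniscotibial ligament and the anterior cruciate ligament were cut after the joint was opened (a model of post traumatic osteoarthritis). The sham groups, the only controls, had the same arthrotomy with both ligaments left intact. At 4-weeks there were 5 OA and 5 sham libraries, each from the synovium of 4 pooled rats. At 12-weeks there were 4 OA and 4 sham libraries, each from 3 pooled rats. Cells were captured with CD11b/c magnetic beads and labelled as macrophages, although CD11b/c is also carried by monocytes, neutrophils and dendritic cells.

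Osteoclasts are the multinucleated cells that dissolve bone, and they form by fusion of precursors of the monocyte and macrophage lineage. The ligand RANKL binds its receptor RANK (Tnfrsf11a), and together with co-receptors that signal through ITAM adaptors, such as OSCAR, it raises NFATc1 (Nfatc1), the transcription factor that drives most osteoclast genes. Fusion needs the membrane proteins DC-STAMP and OC-STAMP (Ocstamp) and the proton pump subunit encoded by Atp6v0d2. Resorption uses acid and enzymes, among them tartrate-resistant acid phosphatase (Acp5), the collagen-degrading protease cathepsin K (Ctsk) and the gelatinase Mmp9, and the calcitonin receptor (Calcr) marks the mature cell. Macrophages of inflamed or healthy synovium also transcribe several of these genes, so none of them alone identifies an osteoclast.

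Since NFATc1 is a shared regulator of these genes, the 250 bases before the annotated start were read for 5 members with an entry in the RefSeq promoter table (build GRCr8, which differs from the Rnor_6.0 build of the deposited tables). The sequences below are those that hold the core letters bound by NFAT proteins, GGAAA on either strand, which stand in capitals. They are written 5′ to 3′ on the strand of the gene.
Acp5, chr8:28943930-28944179, minus strand: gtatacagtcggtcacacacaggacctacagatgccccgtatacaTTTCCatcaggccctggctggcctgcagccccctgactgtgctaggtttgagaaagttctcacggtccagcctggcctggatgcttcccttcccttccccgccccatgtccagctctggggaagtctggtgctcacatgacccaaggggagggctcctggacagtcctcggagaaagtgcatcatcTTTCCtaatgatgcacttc
Ctsk, chr2:185747298-185747547, plus strand: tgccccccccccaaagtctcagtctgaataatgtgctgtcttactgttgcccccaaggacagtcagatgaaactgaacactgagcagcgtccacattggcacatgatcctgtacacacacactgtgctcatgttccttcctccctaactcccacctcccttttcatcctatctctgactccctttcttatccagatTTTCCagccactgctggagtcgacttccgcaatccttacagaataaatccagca
Oscar, chr1:74522633-74522882, plus strand: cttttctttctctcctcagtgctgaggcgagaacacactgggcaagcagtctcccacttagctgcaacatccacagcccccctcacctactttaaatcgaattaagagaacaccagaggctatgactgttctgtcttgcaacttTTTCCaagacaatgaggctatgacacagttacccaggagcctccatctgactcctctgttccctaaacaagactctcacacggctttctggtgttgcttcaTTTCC
Ocstamp, chr3:174560908-174561157, minus strand: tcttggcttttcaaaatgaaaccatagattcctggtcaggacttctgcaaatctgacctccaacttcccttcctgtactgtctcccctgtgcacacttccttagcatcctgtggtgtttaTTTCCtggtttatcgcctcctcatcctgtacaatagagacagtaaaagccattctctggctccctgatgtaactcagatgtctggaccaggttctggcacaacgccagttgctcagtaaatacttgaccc
Acp5 has a pair of annotated starts in the table, and the window shown is the one downstream of the other on the strand of the gene. The other Acp5 window and the Calcr window held no match. The NFAT core was present in 56.9% of all 33469 promoter windows of this length, so its presence in these 4 genes is common among promoters. The AP-1 site TGANTCA, found in 6.34% of windows, and the E-box CACGTG, found in 5.59%, matched none of the 6 windows of these members on either strand. The PU.1 letters GAGGAA, found in 23.3% of windows on either strand and able to share bases with the NFAT core, matched in the Ctsk window alone. A match is a description of letters and not a mapped binding site.

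Reads recovered from the deposited values ranged from 4662344 to 18080503 per library, and the shallowest was sham replicate 3 at 4-weeks. Values below are normalized reads, that is, reads divided by a size factor which the authors estimated within each time point, so levels from the separate tables are compared only on a common scale further on. Because transcript lengths were not used, levels are compared between libraries and not between genes. Macrophage markers were detected in every library, with summed levels of 91698 to 129037 normalized reads at 4-weeks and 120539 to 176944 at 12-weeks. Calcr, the marker of mature osteoclasts, was represented by 3 to 18 reads per library. In bulk libraries, fewer cells of a type and less RNA per cell cannot be told apart.

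Of the 3 receptors, Tnfrsf11a hardly differed between OA and sham, while Oscar and Calcr, counted in at most 31 reads per library, had lower means in OA at 4-weeks. Tnfrsf11a, the receptor RANK, stood at 821, 893, 882, 783 and 758 normalized reads in OA replicates 1 to 5 at 4-weeks and at 836, 872, 692, 928 and 876 in the sham replicates. At 12-weeks its level was 1008, 1076, 874 and 994 in OA and 1031, 1128, 959 and 1109 in sham. The groups overlapped at both times. The log2 difference between OA and sham was -0.02 (SE 0.089) at 4-weeks and -0.10 (SE 0.081) at 12-weeks, as estimated by limma on the log2(normalized reads + 1) scale, which makes differences of low genes look smaller.

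Oscar is the ITAM-coupled co-receptor. At 4-weeks it stood at 21.5, 13.3, 0.69, 7.48 and 5.42 normalized reads in OA and at 25.8, 12.6, 55.7, 28.1 and 23.9 in sham. OA replicates 3, 4 and 5 were below every sham library and sham replicates 1, 3, 4 and 5 were above every OA library, so that only OA replicates 1 and 2 and sham replicate 2 overlapped. The level in OA replicate 3 came from 1 read and that in sham replicate 3, the highest, from 24 reads. The log2 difference was -1.80 (SE 0.61), and it was -1.24 without OA replicate 3. At 12-weeks Oscar was level between groups, with 14.8, 14.3, 4.29 and 11.8 normalized reads in OA, 14.4, 12.9, 12.7 and 10.3 in sham, and a log2 difference of -0.25 (SE 0.36).

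Calcr stood at 4.16, 2.86, 6.87, 3.32 and 5.42 normalized reads in OA at 4-weeks and at 5.52, 12.6, 25.5, 11.7 and 4.60 in sham. Sham replicates 2, 3 and 4 were above all OA libraries, while sham replicates 1 and 5 lay among them. Over all 10 libraries the mean was 8.26, under the minimum of 10 set for the fit across genes, so the log2 difference of -1.05 (SE 0.47) comes from a fit without that minimum. At 12-weeks the OA libraries lay close together at 12.2, 11.2, 11.8 and 11.8, and the sham libraries at 13.6, 14.6, 7.63 and 13.8, with a log2 difference of -0.03 (SE 0.26). At these levels a library held at most 18 reads of Calcr, so a few reads set these levels.

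The transcription factor did not separate the groups. Nfatc1 stood at 842, 789, 741, 812 and 931 normalized reads in OA at 4-weeks and at 813, 686, 515, 1086 and 982 in sham, where the sham libraries lay on both sides of the OA range. Its log2 difference was 0.06 (SE 0.17), and it turned to -0.10 without sham replicate 3, the shallowest library. At 12-weeks the levels were 1025, 1055, 956 and 1004 in OA and 1136, 1006, 970.5 and 1016 in sham, a log2 difference of -0.03 (SE 0.067).

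**Figure D1:**
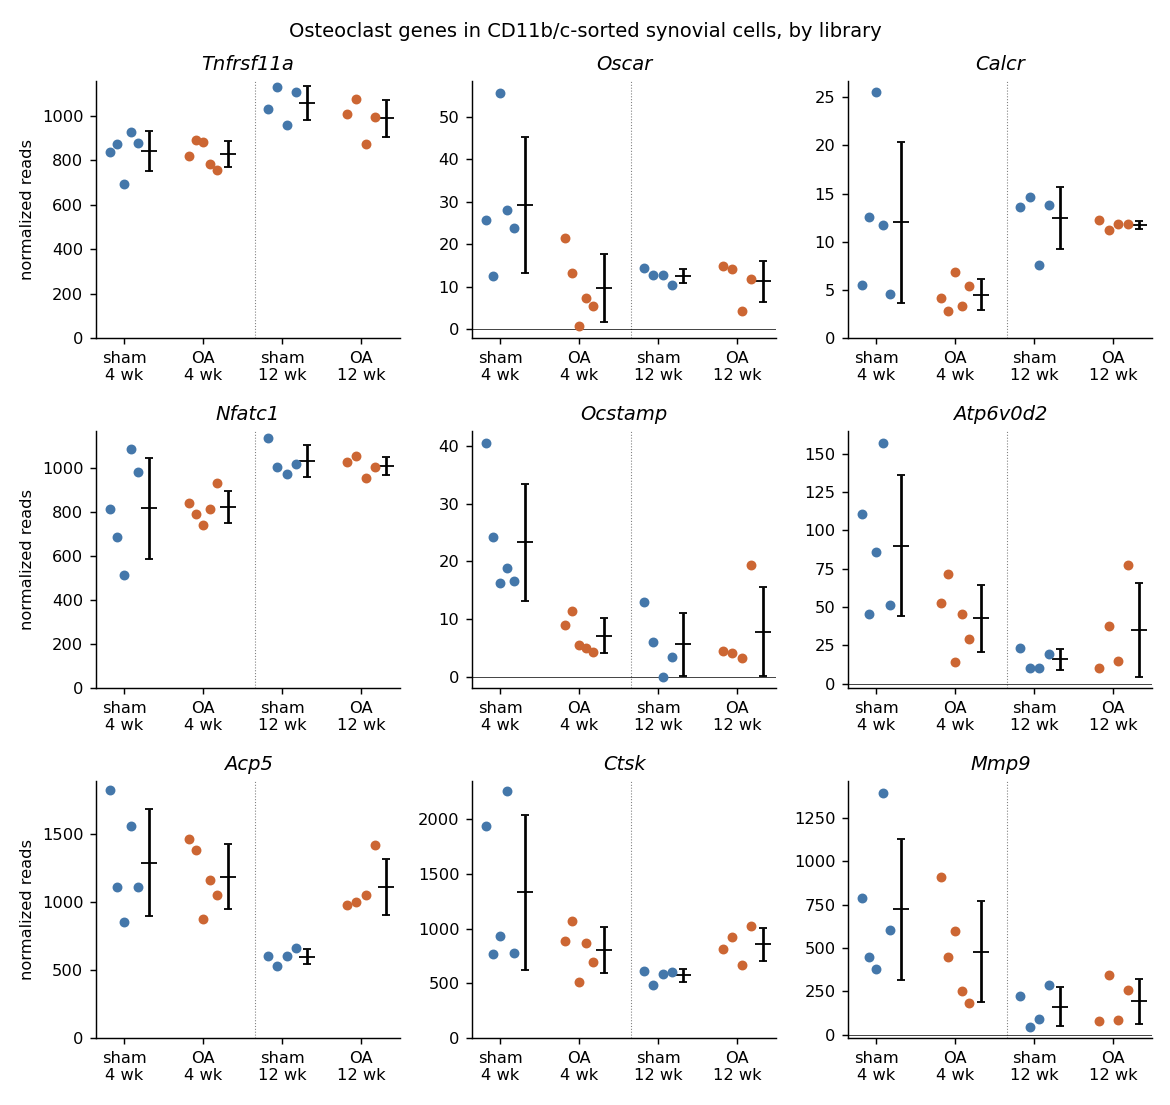
Normalized reads (linear y axis from 0) of the 9 measured genes in each library, in sham (blue) and OA (orange) at 4 and 12 weeks; each point is a pool of rats, and bars give the mean ± SD (n = 5 per group at 4 weeks, 4 at 12 weeks). Ocstamp in OA at 4 weeks lies below every sham library, and Acp5 and Ctsk in OA at 12 weeks lie above every sham library. Each time point has its own normalization.

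The fusion genes were lower in OA at 4-weeks. Ocstamp, which encodes a multi-pass protein needed for precursors to fuse, stood at 9.01, 11.4, 5.49, 4.98 and 4.34 normalized reads in OA and at 40.5, 24.2, 16.2, 18.8 and 16.6 in sham. Every OA library was below every sham library, which 0.693% of all 14861 genes showed in this direction and 1 of the 8 members that passed the minimum did. Ocstamp was chosen with this contrast known and passed the minimum of 10 only through its sham libraries. The share is therefore background and no support. The mean was 7.05 ± 3.05 in OA and 23.3 ± 10.2 in sham (SD, n = 5 each), from 43 and 110 reads in all, and the log2 difference was -1.58 (SE 0.35), or 0.333 times the sham level on that scale. At 12-weeks Ocstamp stood at 4.36, 4.09, 3.22 and 19.3 in OA and at 12.8, 6.02, 0 and 3.45 in sham. The median was 4.22 in OA and 4.73 in sham, and the higher OA mean came from replicate 4. In sham replicate 3 no read was counted, which allows a level of up to 3.82 normalized reads (3 reads, counting error only). The log2 difference of 0.61 (SE 0.73) at 12-weeks comes from a fit without the minimum, since the mean over the 8 libraries was 6.66.

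Atp6v0d2, the d2 subunit of the membrane sector of the vacuolar proton pump, stood at 52.7, 71.5, 14.4, 45.7 and 29.3 normalized reads in OA at 4-weeks and at 110.5, 45.6, 85.9, 157 and 51.6 in sham. Sham replicates 1, 3 and 4 were above every OA library, and OA replicates 3 and 5 were below every sham library. The log2 difference was -1.09 (SE 0.42). At 12-weeks Atp6v0d2 stood at 10.5, 37.8, 15.0 and 77.2 in OA and at 23.4, 10.3, 10.2 and 19.5 in sham. Here OA replicates 2 and 4 were above all sham libraries and OA replicates 1 and 3 lay among them, so that the log2 difference of 0.78 (SE 0.56) dropped to 0.28 without OA replicate 4. That library also had the highest Ocstamp, Acp5 and Ctsk of the 12-week libraries.

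Of the resorption enzymes, Acp5 and Ctsk were higher in every OA library than in every sham library at 12-weeks, while Mmp9 overlapped. Acp5, the enzyme behind the TRAP stain for osteoclasts, stood at 982, 999, 1055 and 1419.9 normalized reads in OA and at 608, 529, 605 and 662 in sham. The means were 1114 ± 206 and 601 ± 54.5 (SD, n = 4 each), and the log2 difference was 0.88 (SE 0.12), or 1.84 times the sham level. All OA libraries exceeded all sham libraries for 2.85% of all 14666 genes and for 2 of the 8 members that passed the minimum. These members were chosen with this contrast known, so the share is background and no support. At 4-weeks the Acp5 levels of 1462, 1387, 879.7, 1166 and 1052 in OA were spread through the sham levels of 1824, 1113, 852, 1562 and 1109, with a log2 difference of -0.09 (SE 0.20).

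Ctsk, whose product cleaves type I collagen in acid, stood at 813, 921, 670.3 and 1024 normalized reads in OA at 12-weeks and at 617, 489.9, 585 and 609 in sham. No sham library reached the lowest OA library, and the log2 difference was 0.56 (SE 0.13), or 1.48 times the sham level. At 4-weeks the order was the other way, with 884, 1068, 517, 866 and 692 in OA and 1933, 772, 928, 2253 and 774 in sham. Sham replicates 1 and 4 were above every OA library, and the other 3 sham libraries lay within the OA range. The log2 difference of -0.61 (SE 0.31) was -0.38 without sham replicate 4.

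Mmp9 varied more between replicates than between groups. It stood at 909.6, 451, 599.5, 254 and 182 normalized reads in OA at 4-weeks and at 789, 451, 381, 1392 and 602 in sham, a log2 difference of -0.66 (SE 0.43). At 12-weeks the levels were 80.3, 346, 84.7 and 259 in OA and 226, 47.3, 91.6 and 286 in sham, a log2 difference of 0.28 (SE 0.62) that turned to -0.10 without OA replicate 2 and to -0.20 without sham replicate 2. Mmp9 is also stored in neutrophil granules. Summed neutrophil markers were 13022 and 15174 normalized reads in OA replicates 1 and 3 at 4-weeks, against 1230 to 5063 in the other 8 libraries of that time. OA replicates 1 and 3 had the most Mmp9 of the OA libraries. The highest Mmp9 of all, 1392 in sham replicate 4, went with a neutrophil sum of 4669. Across the 18 libraries, as deviations from the group means, Mmp9 and the neutrophil sum had a Pearson r of 0.73 and a Spearman rho of 0.71. With the endothelial sum Mmp9 had an r of -0.61. The part of neutrophil RNA in the Mmp9 values was not tested.

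Set side by side, 8 of the 9 genes had a lower mean in OA at 4-weeks and 5 of 9 had a higher mean in OA at 12-weeks. A log2 difference above 0 at 4-weeks was seen in 57.1% of all genes tested and in 1 of 8 members. At 4-weeks a log2 difference of -0.5 or below was seen in 5 of 8 members and in 6.03% of all genes, and at 12-weeks one of 0.5 or above in 3 of 8 members and in 4.48% of all genes. The median over the members that passed the minimum was -0.64 at 4-weeks and 0.12 at 12-weeks, against 0.03 and -0.01 over all genes tested. In the limma fits 0% of genes were called at either time (adjusted p under 0.05 and a log2 difference of 0.5 or more in size), although 1177 genes at 4-weeks and 1814 at 12-weeks had an unadjusted p under 0.05. DESeq2 on the recovered reads called 27 genes at 4-weeks (0.159% of 17001) and 95 at 12-weeks (0.671% of 14160). The edgeR test called 0 genes (0%) at either time. Since these contrasts chose the members, nothing about them is read from the counts in this paragraph.

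The difference between the OA effect at 12-weeks and that at 4-weeks was estimated over all 18 libraries on a common scale of log2 CPM (reads scaled to a fixed library size), with TMM scaling. It was 1.78 (SE 0.72) for Atp6v0d2, 1.38 (SE 0.70) for Oscar, 1.12 (SE 0.40) for Ctsk, 0.92 (SE 0.28) for Acp5 and 0.89 (SE 0.81) for Mmp9. For Nfatc1 and Tnfrsf11a it was -0.13 in both cases (SE 0.23 and 0.14), close to the median of -0.10 over all 14420 genes. Ocstamp, at 1.86 (SE 0.72), and Calcr, at 0.88 (SE 0.51), did not pass the minimum in both tables. The value was thus above 0 for all members other than Tnfrsf11a and Nfatc1, the co-receptor Oscar among them. It was computed from the contrasts that chose the members, and the share of all genes above 0 was not counted. In limma, edgeR and DESeq2 the count of all genes called for this difference was 0 (0% of 14420 in limma and edgeR and of 30131 in DESeq2), with 542 genes at an unadjusted p under 0.05 in limma. A log2 difference of -0.5 or below at 4-weeks together with one of 0.5 or above at 12-weeks was found in 69 of 14420 genes (0.479%), of which Atp6v0d2 and Ctsk were the members among the 7 tested at both times.

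**Figure D2:**
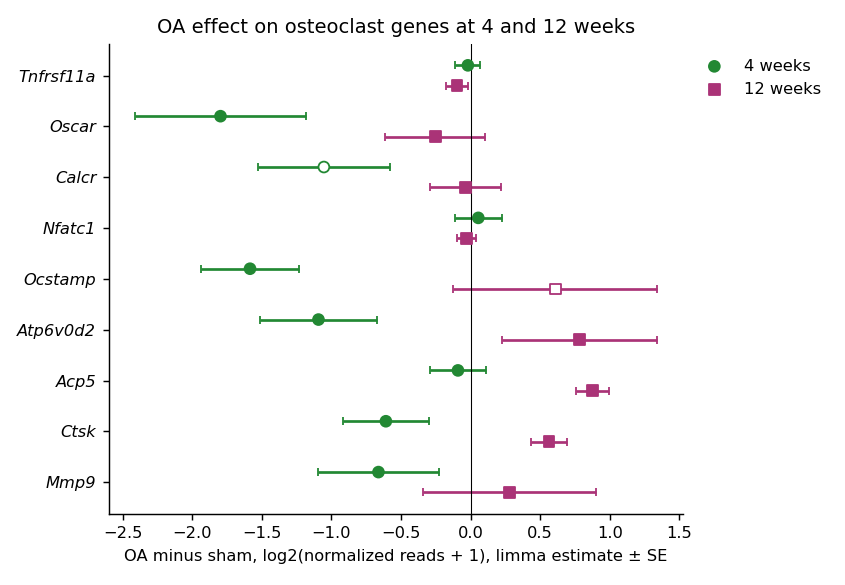
OA minus sham on the log2(normalized reads + 1) scale (x axis, limma estimate ± SE) for each gene at 4 weeks (circles) and 12 weeks (squares); open symbols mark genes whose mean was under 10 normalized reads. Tnfrsf11a and Nfatc1 sit near 0 at both times, Ocstamp (-1.58) and Oscar (-1.80) lie lowest at 4 weeks, and Acp5 (0.88) has the narrowest error among the members above 0.5 at 12 weeks.

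On the common CPM scale, the sham libraries differed more between time points than the OA libraries for Acp5 and Ctsk. Mean Acp5 was 107 CPM in sham and 101 in OA at 4-weeks, and 45.0 in sham and 83.3 in OA at 12-weeks. The sham libraries at 12-weeks (39.9 to 49.5 CPM) lay below all sham libraries at 4-weeks (65.5 to 153), and the OA libraries of the 2 times overlapped (75.2 to 124 and 73.3 to 106). Ctsk had the same order, with sham at 110.3 CPM at 4-weeks and 43.0 at 12-weeks and OA at 68.6 and 64.1. The mean log2 level at 12-weeks minus that at 4-weeks was -1.19 for both genes in sham and -0.27 for Acp5 and -0.07 for Ctsk in OA, where the median over all genes was 0.07 in sham and -0.02 in OA.

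Atp6v0d2 was highest in sham at 4-weeks (7.43 CPM), followed by OA at 4-weeks (3.64), OA at 12-weeks (2.62) and sham at 12-weeks (1.19). Its OA libraries at 4 and 12 weeks overlapped (1.23 to 6.11 and 0.78 to 5.76), as did OA and sham at 12-weeks, while no sham library at 12-weeks (up to 1.77) reached the lowest one at 4-weeks (3.77). Ocstamp and Oscar were highest in sham at 4-weeks, at 1.92 and 2.37 CPM, and their other 3 groups stood close together, at 0.42 to 0.60 and at 0.82 to 0.94. Calcr was lowest in OA at 4-weeks, at 0.39 CPM, against 0.88 to 0.97 in the other groups. Mmp9 was lower at 12-weeks than at 4-weeks in both groups, at 14.4 against 40.8 CPM in OA and at 12.2 against 60.0 in sham. Tnfrsf11a and Nfatc1 kept within 67.7 to 79.1 CPM in all 4 groups, with neighbours in that order overlapping. The time points also differ in the number of rats pooled and in the age of the rats, so time cannot be told apart from these.

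Whether the genes vary together within groups is a separate question, which does not use the contrast that chose them. For each of the 36 pairs, deviations of log2 CPM from the group mean were correlated over the 18 libraries, and p came from 100000 two-sided permutations of libraries within groups. Atp6v0d2 and Ctsk had a Pearson r of 0.76 and a Spearman rho of 0.85, with a permutation p of 2e-05 for each, 0.00072 after Benjamini-Hochberg adjustment over the 36 pairs. Without the 2 libraries farthest from the median of Atp6v0d2 (OA replicate 3 at 4-weeks and OA replicate 4 at 12-weeks) r was 0.76. Within the time points r was 0.89 at 4-weeks (10 libraries) and 0.81 at 12-weeks (8 libraries). Libraries with more of the fusion gene therefore had more of the protease at both times.

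Acp5 and Ctsk had an r of 0.82 and a rho of 0.85 (permutation p 0.00191 and 0.00043, adjusted 0.0344 and 0.00774). Their r was 0.81 without 2 libraries, 0.85 at 4-weeks and 0.65 at 12-weeks. Atp6v0d2 and Acp5 had an r of 0.67 and a rho of 0.75 (permutation p 0.00361 and 0.00138, adjusted 0.0433 and 0.0166). That r was 0.56 without 2 libraries, 0.70 at 4-weeks and 0.78 at 12-weeks. With any 1 library left out, the pair of Atp6v0d2 and Ctsk kept an adjusted p for r of at most 0.0054, whereas the other pairs rose above 0.05 in 8 and 14 of 18 cases. The 3 genes Atp6v0d2, Acp5 and Ctsk were the only members joined by pairs past the threshold.

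Of the 36 pairs 26 had a positive r. Tnfrsf11a and Nfatc1 had an r of 0.64, but their rho was 0.26 and r fell to 0.24 without sham replicate 3 at 4-weeks and OA replicate 3 at 12-weeks, so the relation rests on those libraries. Ocstamp correlated with Atp6v0d2 at an r of 0.57 (permutation p 0.0169, adjusted 0.103) and with Acp5 at 0.50 (permutation p 0.0102, adjusted 0.0921), which did not pass. Calcr had an r below 0 with all the other members over the 18 libraries, between -0.01 with Ocstamp and -0.57 with Acp5 (permutation p 0.0922, adjusted 0.234), and no pair passed. At 4-weeks these r were also below 0, but at 12-weeks 5 of 8 were above 0, among them 0.67 with Ocstamp, 0.60 with Tnfrsf11a and 0.51 with Nfatc1. With 1 library left out, the r of Calcr and Tnfrsf11a (-0.33 with all) reached 0.30, so the sign of the Calcr pairs was not stable.

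**Figure D3:**
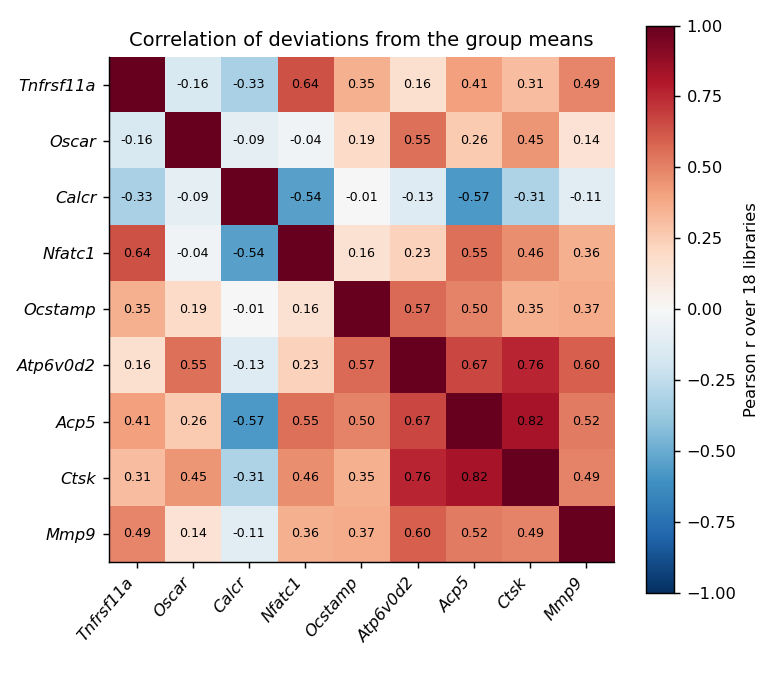
Pearson r between members over 18 libraries, computed on deviations of log2 CPM from the group means (colour scale from -1 to 1, r printed in each cell). Atp6v0d2, Acp5 and Ctsk form the block with r between 0.67 and 0.82, and the Calcr row is below 0 when the time points are pooled, although 5 of its 8 values are above 0 within 12 weeks.

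Each member's place among all 14419 other genes shows how particular these relations were. Acp5 was the 3rd closest gene to Ctsk, and Ctsk was the 25th closest to Acp5 and the 7th closest to Atp6v0d2. For Nfatc1 and Tnfrsf11a the closest fellow member ranked 2901 and 2579. The closest gene was Shc2 for Ctsk (r 0.89), Mt3 for Atp6v0d2 (0.90), AABR07063279.1 for Acp5 (0.93), LOC361016 for Oscar (0.82), Cfap53 for Mmp9 (0.81), Pstpip1 for Tnfrsf11a (0.95) and Pom121 for Nfatc1 (0.98). Mt3, a metallothionein that binds zinc and copper, had log2 differences of -1.25 (SE 0.34) at 4-weeks and 0.96 (SE 0.38) at 12-weeks, with limma adjusted p of 0.403 and 0.373. Differences of the other closest genes are not given here, so Mt3 does not stand for them. Closest to the mean of the 7 members that passed the minimum in both tables were Magohb (r 0.90), Dtx2 (0.85), Src (0.85), Mical1 (0.84), Tm4sf19 (0.84), Il21r (0.82), Serinc2 (0.82) and Cd80 (0.82). Src encodes the tyrosine kinase required for the ruffled border. Among 65 other osteoclast pathway genes it ranked highest, followed by Tcirg1, the a3 subunit of the proton pump (r 0.77, rank 32). The likeness was not particular to genes that promote resorption. Irf8, a brake on osteoclast formation, had an r of 0.72 (rank 106), and the macrophage markers Cd68 and Itgam had 0.72 and 0.71 (ranks 126 and 141). The other macrophage markers were lower, from 0.60 for Cd14 to -0.18 for C1qc. The summed macrophage markers had an r of 0.25 with the members' mean. Tspan7, of the macrophage fusion list, was at -0.68 (rank 14271). These r values are descriptions over 18 libraries, which share depth and scaling, and carry no p.

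Other genes of the pathway were taken from lists by role, 65 of 66 with a row and all 65 tested at both times. With limma, 0 of the 65 were called at either time or for the difference between times, and edgeR called 0 as well. Both called 0 of all genes in these comparisons, so this would hold for any list. At an unadjusted p under 0.05 there were 6 higher and 1 lower in OA at 4-weeks and 15 higher and 3 lower at 12-weeks, against 4.1% and 3.82% of all genes at 4-weeks and 5.75% and 6.62% at 12-weeks. The median log2 difference of the 65 was 0.11 at 4-weeks and 0.06 at 12-weeks.

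Among 11 genes of acid secretion and attachment, Car2 and Slc9b2 were, like Atp6v0d2 and Ctsk, lower in OA at 4-weeks and higher in OA at 12-weeks, though neither was called. Car2, the carbonic anhydrase that makes protons for the resorption space, was at 46.8 ± 15.0 normalized reads in OA and 87.3 ± 32.4 in sham at 4-weeks (SD, n = 5 each), a log2 difference of -0.88 (SE 0.25, limma adjusted p 0.453). At 12-weeks Car2 was at 57.5 ± 22.4 in OA and 45.7 ± 5.38 in sham (n = 4 each), a log2 difference of 0.26 (SE 0.23, limma adjusted p 0.654). DESeq2 without sham replicate 3 called Car2 at 4-weeks. Slc9b2, a sodium and proton exchanger of osteoclasts, was at 31.0 ± 13.0 and 52.5 ± 24.9 at 4-weeks (log2 difference -0.73, SE 0.35, limma adjusted p 0.639) and at 29.2 ± 6.59 and 16.1 ± 7.16 at 12-weeks (0.92, SE 0.35, limma adjusted p 0.358). The OA effect at 12-weeks minus that at 4-weeks was 1.53 (SE 0.50) for Slc9b2 and 1.07 (SE 0.37) for Car2, with a limma adjusted p of 0.781 for each. The other 9 genes of this list, such as Ostm1 (0.21 at 4-weeks and 0.23 at 12-weeks) and Ckb (0.18 at 12-weeks), lay between -0.13 and 0.23 at either time.

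In the list of RANK and co-receptor signalling (16 genes measured) Trem2, an ITAM-coupled receptor of macrophages, was at a log2 difference of 0.45 (SE 0.11) at 4-weeks and 0.56 (SE 0.15) at 12-weeks. Its limma adjusted p was 0.403 and 0.278, and DESeq2 called it at 12-weeks. Siglec15, a receptor that aids osteoclast formation, was at 0.25 and 0.59, and Relb, a subunit of alternative NF-kB, was at -0.29 at 12-weeks. Of 7 brakes on osteoclast formation, Tnfrsf11b, the decoy receptor osteoprotegerin that captures RANKL, was at 0.48 (SE 0.27) and 0.59 (SE 0.17). Of 10 transcription factors, Mitf was at 0.13 and 0.30 and Prdm1 at -0.36 at 12-weeks, and of 13 genes of macrophage fusion, the tetraspanin Cd9 was at 0.01 and 0.52 (SE 0.13), the latter called by DESeq2. The medians of these 4 lists at 4-weeks were 0.08 to 0.16, while Ocstamp and Atp6v0d2 were below -1.

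Relatives of the members were read to see whether a whole family shared the pattern. Atp6v0d1, the d1 subunit that most cells use in place of Atp6v0d2, was at a log2 difference of 0.15 (SE 0.061) at 4-weeks and 0.10 (SE 0.075) at 12-weeks. The lysosomal protease Ctss, relative of Ctsk, was at 0.24 and 0.42, and Mmp2 and Mmp14, relatives of Mmp9, were at 0.36 and 0.22 at 4-weeks and 0.54 and 0.69 at 12-weeks. All 10 relatives had a log2 difference above 0 at 4-weeks (57.1% of all genes did), and 0 of 10 were called by limma at either time (0% of all genes were). Without sham replicate 3 at 12-weeks, limma called 81 genes, among them the pathway genes Cd9, Mmp14, Mmp2 and Tnfrsf11b.

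**Figure D4:**
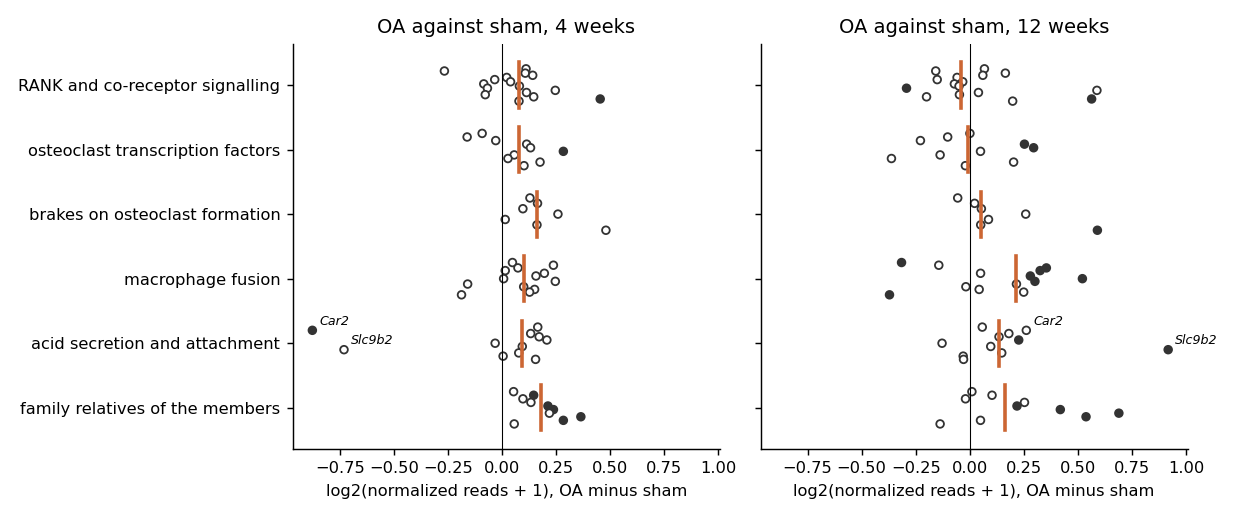
OA minus sham on the log2(normalized reads + 1) scale (x axis) for 65 other pathway genes by list (2 of them in 2 lists), at 4 weeks (left) and 12 weeks (right). Filled points have an unadjusted p under 0.05, and orange bars are list medians; Car2 (-0.88) and Slc9b2 (-0.73) are the lowest at 4 weeks, and Slc9b2 (0.92) is the highest at 12 weeks.

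Most markers of fibroblasts, and all tested markers of skeletal muscle and chondrocytes, were higher in OA at 12-weeks. At 4-weeks the medians of the muscle and chondrocyte markers were below 0. Summed fibroblast markers (9 of 10 measured) were 84787 to 111450 normalized reads in OA and 59423 to 90860 in sham. Col3a1 and Col1a1 were the most abundant of them. Of the 9, 7 were higher in OA, and 7 had an unadjusted limma p under 0.05 in either direction. Pdgfrb (mean 2664 in OA and 3194 in sham) and Thy1 (606 and 866) were lower in OA, as they were at 4-weeks. Summed skeletal muscle markers (6 genes) were 1049.8 to 1859.6 in OA and 773 to 964 in sham, and chondrocyte markers (5 genes) 554 to 1589 and 431 to 896. At 12-weeks all 6 muscle markers and all 4 chondrocyte markers tested were above 0 (medians of 0.60 and 0.73 on the log2 scale). At 4-weeks 4 of 6 and 3 of 4 were below 0, with medians of -0.15 and -0.40. The list medians thus changed sign between the times. Within groups, over 18 libraries, the muscle sum had an r of -0.04 with Atp6v0d2, -0.33 with Ctsk and -0.39 with Acp5. For the chondrocyte sum these were 0.38, 0.33 and 0.31. Without sham replicates 1 and 3 at 4-weeks the muscle values were 0.03, -0.05 and 0.12. Without sham replicates 2 and 4 at 4-weeks the chondrocyte values were 0.16, -0.17 and 0.17. The 4-week sums of OA and sham overlapped, at 313 to 571 and 283 to 750 for muscle and 532 to 1302 and 298 to 2164 for chondrocytes. The chondrocyte marker Acan had a higher mean in OA at 4-weeks (409 against 222). No marker of these 3 lists was called by limma at either time, but neither was any other gene, so this says nothing about the markers. The fibroblast median was above 0 at both times (0.36 and 0.50). At 12-weeks sham replicate 3 had a fibroblast sum of 90860, an Acp5 of 605 and a Ctsk of 585. OA replicate 4 had a sum of 84787, an Acp5 of 1419.9 and a Ctsk of 1024. These are single libraries, and nothing about fibroblasts is read from them. As deviations from the group means over 18 libraries, Ctsk had an r of 0.33 (rho 0.11) and Acp5 of 0.13 (rho 0.02) with the fibroblast sum. The sign was not stable. At 4-weeks r was 0.42 for Ctsk and 0.23 for Acp5, and at 12-weeks it was -0.25 and -0.29. Without sham replicate 4 at 4-weeks and sham replicate 3 at 12-weeks it was -0.05 and -0.10. Fibroblasts also transcribe Ctsk, and the part of these cell types in the difference was not tested.

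Of the 99 relations between a member and a marker sum, the 5 with the largest r in size were Calcr with skeletal muscle (r 0.74, rho 0.59), Mmp9 with neutrophils, Tnfrsf11a with macrophages (r 0.66, rho 0.75), Ocstamp with endothelium (r -0.65, rho -0.73) and Mmp9 with endothelium. The r of Calcr with muscle was 0.82 at 4-weeks and 0.33 at 12-weeks, and it was 0.53 without sham replicates 1 and 3 at 4-weeks. That of Ocstamp with endothelium was -0.62 and -0.70, and it was -0.49 without OA replicate 5 at 4-weeks and sham replicate 3 at 12-weeks. These are descriptions over libraries that share depth and scaling.

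Osteoblast and osteocyte markers were at low levels. Their sum (8 genes) was 149 to 216 normalized reads in OA and 106 to 187 in sham at 12-weeks, and 131 to 218 in OA and 140 to 339 in sham at 4-weeks. Bglap and Sp7 of osteoblasts and Sost of osteocytes had means under 10, while Runx2, the most abundant, had means of 46.5 to 67.2, and none of the 8 was at 0 in every library. Of the 5 tested, 4 were below 0 at 4-weeks (median log2 difference -0.25) and 4 were above 0 at 12-weeks (median 0.73, 2 at an unadjusted p under 0.05). Limma called none of them, nor any other gene, at either time. The highest sums at 4-weeks, 339 and 288, were in sham replicates 3 and 4, and sham replicate 4 also had the highest Atp6v0d2, Ctsk and Mmp9. Over 18 libraries the r of this sum with Atp6v0d2, Ctsk and Acp5 was 0.06, 0.06 and -0.20. By time point these were 0.06, 0.01 and -0.35 at 4-weeks and 0.07, 0.33 and 0.33 at 12-weeks. The part of bone tissue in the member values was not tested.

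**Figure D5:**
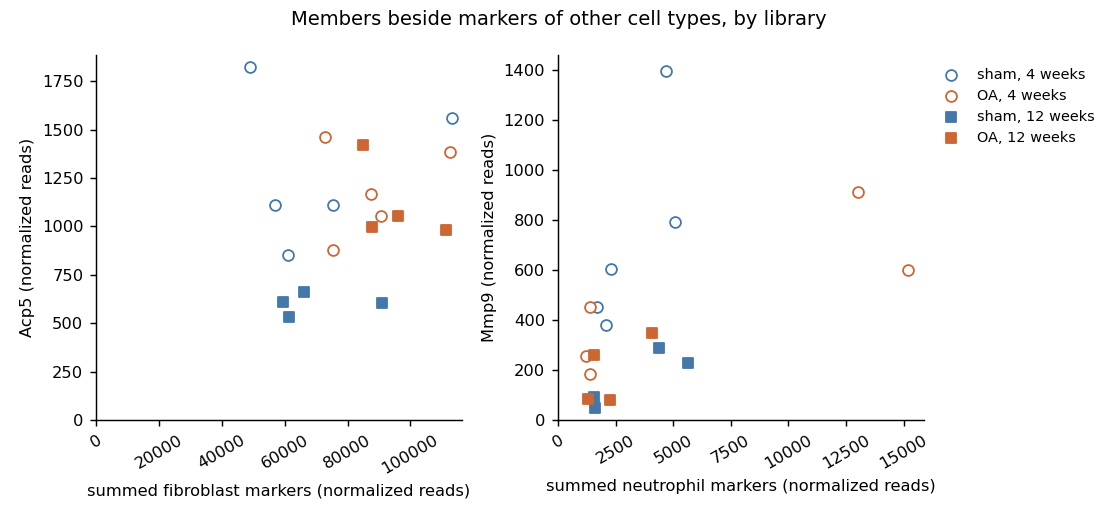
Normalized reads of Acp5 against summed fibroblast markers (left) and of Mmp9 against summed neutrophil markers (right), one point per library (open circles 4 weeks, filled squares 12 weeks, sham blue, OA orange; linear axes from 0). At 12 weeks the sham library with the highest fibroblast sum (90860) has an Acp5 of 605. In the right panel, OA libraries with neutrophil sums of 13022 and 15174 at 4 weeks have Mmp9 at 909.6 and 599.5. The highest Mmp9, 1392 in a sham library at 4 weeks, lies at a neutrophil sum of 4669.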

How the data were processed

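RNA of CD11b/c-sorted synovial cells was sequenced in 18 libraries (stranded total RNA, ribosomal RNA removed), grouped by surgery and week from the labels. According to the paper's methods the authors aligned reads with STAR 2.7.6a to Rnor_6.0, removed duplicates, counted reads per gene with featureCounts 2.0.0 (strand setting not given in the sources used here) and normalized with DESeq2 1.24.0. The deposited values are these normalized reads (a signal, at or above 0), in a table for each week. Beside them stand the authors' log2 fold changes, p-values and Wald statistic (a score), none of which was used. In every library 100% of values came out as whole reads (tolerance 0.01 reads), so the count of reads was recovered from the deposited signal. Recovered depth was 4662344 to 18080503 reads, and intervals and limits cover counting error only. Libraries of a group differed by a chi-square per degree of freedom of at least 5.84 over 32 pairs, so none was a repeat.

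OA and sham were compared within each week with limma 3.58.1 (R 4.3.3, mean-variance trend) on log2 of normalized reads plus 1, over genes with a mean of at least 10, with Benjamini-Hochberg adjustment over all genes. The difference between weeks was an interaction on log2 CPM (prior count 2, TMM). Calls needed an adjusted p-value under 0.05 and a log2 difference of at least 0.5. The edgeR 4.0.16 and DESeq2 1.42.0 tests on recovered reads were alternatives, beside pseudocounts of 0.5 and 5, a mean of 50 or no minimum, other scalings, a replicate block and leaving out each library. Replicates are pools of different rats, and the labels list fewer libraries at 12-weeks than the paper's methods state. Scripts were tested on simulated data. Python 3.11.15, numpy 2.4.6, pandas 2.3.3, scipy 1.17.1 and matplotlib 3.10.9 were used for tables, permutations and plots.

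The members and gene lists were chosen with earlier results of these data known. Named genes are all members and up to 4 genes per list with the largest difference. Also named are the 8 genes closest to the members' mean and the closest gene to each member. Other genes and the calls of alternatives were named after their values were seen. These genes are Src, Tcirg1, Irf8, Tspan7, Cd68, Itgam, Cd14 and C1qc in the ranking by the members' mean, Ctss, Atp6v0d1, and the markers Col3a1, Col1a1, Pdgfrb, Thy1 and Acan. Dcstamp, Tnfsf11, Pecam1 and Col1a2 were not analysed here.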

Additional observations from a re-analysis of the deposited data

Results flagged for a closer look

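In 36 groups of libraries (9 genes in 4 groups), the highest or lowest library was checked by Dixon's criterion at the 95% level, which chance passes in about 1 of 20 groups. 2 groups had a library that stood apart. Calcr was at 7.63 normalized reads (6 reads) in sham replicate 3 at 12-weeks, where the other sham libraries were at 13.6 to 14.6. Ocstamp was at 19.3 normalized reads (18 reads) in OA replicate 4 at 12-weeks, where the other OA libraries were at 3.22 to 4.36. Both values rest on fewer than 20 reads.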

How the results depend on the processing

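The members' log2 differences moved by less than 1 SD under every alternative run (166 values at 4-weeks and 141 at 12-weeks), but some moved by more than their SE. Ocstamp at 4-weeks ranged from -1.83 to -1.20, with a main value of -1.58 (SE 0.35). Acp5 at 12-weeks ranged from 0.75 to 0.93, with a main value of 0.88 (SE 0.12). The sign turned under at least 1 alternative for Tnfrsf11a, Nfatc1 and Acp5 at 4-weeks and for Oscar, Calcr, Nfatc1 and Mmp9 at 12-weeks, all with main values within 0.3 of 0. Counts of called genes over all genes did depend on the test. At 4-weeks limma called 0, 1 with TMM scaling and 1 with a replicate block, edgeR 0 and DESeq2 27. Leaving out each library gave 0 to 1 calls, with 1 without sham replicate 3. Without that library, a choice made after the data were seen, edgeR called 1 and DESeq2 40, with 1 pathway gene. At 12-weeks limma called 0 and DESeq2 95, with 2 pathway genes. Leaving out each library gave 0 to 81, with 81 without sham replicate 3 and 1 without sham replicate 4, and 0 to 4 pathway genes. DESeq2 without sham replicate 3, also added later, called 233, with 4 pathway genes. The cause was not tested. The difference between weeks gave 0 calls under all 27 alternatives. Of the 36 member pairs, 3 passed, and 1 to 5 when a library was left out (1 without OA replicate 2 or 5, or sham replicate 1, 2 or 5, at 4-weeks and OA replicate 1 or 4 at 12-weeks, and 5 without sham replicate 4 at 4-weeks or sham replicate 2 at 12-weeks). Same-numbered OA and sham libraries were pools of different rats, and their deviations correlated at -0.131 to 0.298, so the numbers were not used for pairing, and the replicate block changed no other call. Members under 20 reads in every library (Calcr at both times, Ocstamp and Oscar at 12-weeks) are limited by depth. Depth also limits Ocstamp and Oscar at 4-weeks. There Ocstamp had 4 to 13 reads in OA and 7 to 44 in sham, and Oscar had 1 to 31 and 13 to 28.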
